A study of Homo sapiens with 4 samples.

Results

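The anaphase-promoting complex or cyclosome (APC/C) and the securin and separase pair were followed through 10 genes in human mammary epithelial cells with and without a shRNA against PAK1. The genes are the core subunits CDC27, CDC16 and CDC23, the activators CDC20 and FZR1, the E2 enzymes UBE2C and UBE2S, the inhibitor FBXO5, the securin PTTG1 and the separase ESPL1. They were taken by name from the spots of the array other than controls, and all 10 were found among 27193 gene names. The comparison asks which genes differ between PAK1 deficient cells and their controls, here with the core of the ligase set beside its activators, enzymes and substrates. There were 2 arrays of MCF10A.B2 control cells and 2 arrays of MCF10A.B2 cells expressing a Tet inducible shRNA against PAK1 (PAK1 shRNA cells). MCF10A.B2 is the non-tumorigenic mammary epithelial line MCF10A carrying a form of Her2 that a chemical crosslinker can activate, and both groups carry that receptor. Cells of both groups were grown in DMEM/F12 with 5% horse serum, kept without serum for 3 h and given the crosslinker AP1510 for 15 min before RNA was taken. The labels name the first group only as control, so parental cells and cells with an uninduced shRNA cannot be told apart. Arrays of a shRNA without a target were not analysed here, so effects of any shRNA and of PAK1 loss cannot be told apart either. Labels and methods do not say whether the 2 samples of a group came from separate cultures. So p-values measure only the spread between these samples, which may be technical.

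The APC/C is a ubiquitin ligase that marks mitotic proteins for destruction by the proteasome. Its large core is bound in mitosis by the activator CDC20, and at mitotic exit and in G1 by FZR1, which bring substrates to it. The E2 enzyme UBE2C starts the ubiquitin chains and UBE2S extends them. Through CDC20 it removes securin, which frees separase to cut cohesin and lets sister chromatids part. FBXO5 (EMI1) blocks the ligase during S and G2 phase. CDC20, UBE2C and PTTG1 are also known as genes that cycling cells transcribe most strongly in G2 and M phase.

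PAK1, the kinase gene that the shRNA targets, checked the labels first. Its normalized log2 intensity was 11.19 and 11.27 in the controls, against 10.45 and 10.51 in PAK1 shRNA cells. This is a log2 fold change of -0.75 (standard error 0.08, limma, adjusted p = 0.000173 by Benjamini-Hochberg), which left 59.5% of the control level. Among the genes tested, 3108 fell further, so the fall by itself is a weak check of the labels. The probe lies on chromosome 11 from 77034135 to 77034194 (hg19). All arrays were of 1 colour and shared 1 slide, and their number limits the precision. Between 78.9% and 83.2% of probes were well above background on an array, and the arrays of a group correlated at 0.998 over probes. All 8 basal epithelial markers listed (KRT5, KRT14, KRT6A, TP63, CDH1, LAMB3, ITGB4 and EGFR) were well above background on every array, with a summed normalized intensity of 447500 to 504300 in control cells and 605400 to 626100 in PAK1 shRNA cells. The sum rose with LAMB3 (log2 fold change 1.35), while KRT5, KRT14, TP63 and EGFR were lower. So 4 of the 8 were lower and 3 higher, beside 31.8% and 31.1% of all genes tested. Of 6 fibroblast markers, 3 were well above background on every array and COL1A2 and COL3A1 on none, with sums of 4096 to 4845 in control cells and 7952 to 8162 in PAK1 shRNA cells. The 4 leukocyte markers summed to 18630 to 19480 and to 45080 to 48840, nearly all of it CD14, and the 3 endothelial markers to 958 to 998 and to 752 to 786. The part of these shifts in the results was not tested.

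Of the 21996 genes tested, 62.9% passed the threshold in one direction or the other (adjusted p under 0.05 from limma), 31.8% lower and 31.1% higher in PAK1 shRNA cells. A fall of at least 2-fold was seen in 8.94% of genes and such a rise in 8.87%. Both PAK1 shRNA arrays lay under both control arrays in 39.6% and above both in 42.2%. Against that background all 10 members were lower in PAK1 shRNA cells with adjusted p under 0.05, and for all 10 the groups did not overlap. For CDC27 this held for the brighter of its 2 probes only. Its other probe was higher (log2 fold change 0.25, adjusted p = 0.0225 from limma over 27505 probes). Among these 10 members the size of the fall set the core members apart from the rest, while the other roles overlapped. The 3 core members had a median log2 fold change of -0.65 and none fell 2-fold. The 7 members outside the core had a median of -3.17 and all 7 fell at least 2-fold. In median the core members stood at 63.8% of the control level and the other members at 11.1%. This did not hold for every core subunit. Of the 11 core subunits that are not members, 2 fell at least 2-fold, and ANAPC11 (-1.47) fell further than FZR1 (-1.14). The median over all genes tested was 0.02. The list is described by its counts and medians, and no test was made over it. In a bulk sample, fewer cells of a type and less RNA per cell cannot be told apart.

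**Figure D1:**
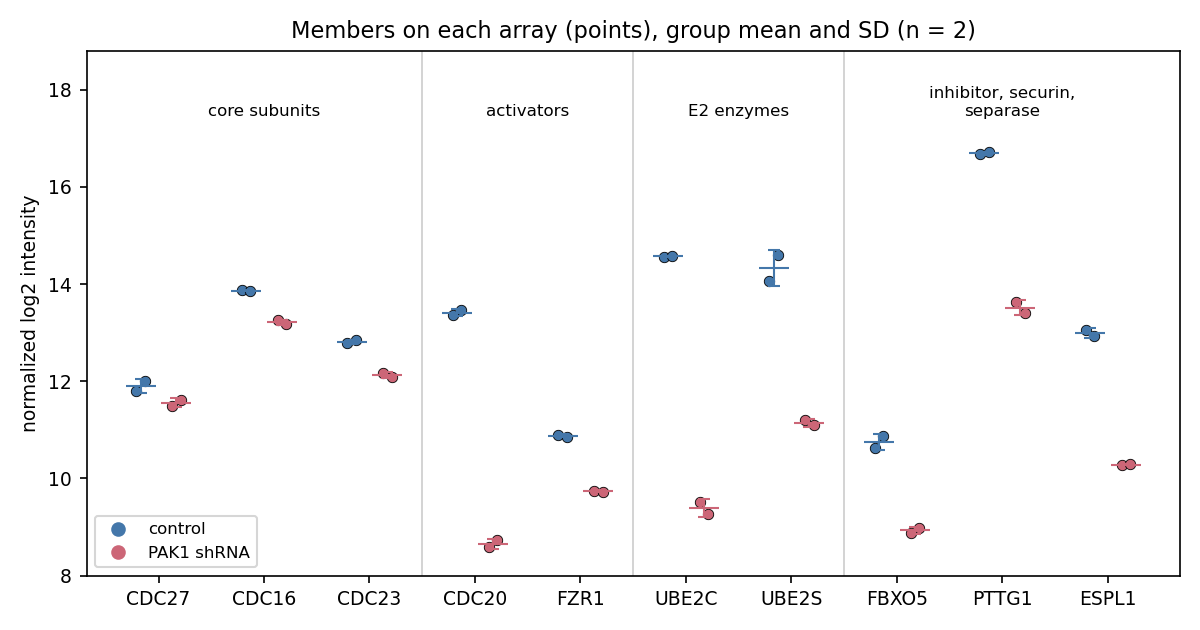
Normalized log2 intensity (y axis) of the 10 members (x axis, by role) on each array, with blue points for control and red points for PAK1 shRNA cells, long bars for the group mean and error bars for the SD (n = 2). Both red points lie under both blue points for each gene, closely so for CDC27, CDC16 and CDC23 and far below for CDC20 and UBE2C. CDC27 is drawn from its brighter probe only. Levels of different genes come from different probes and are not comparable.

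Promoter sequences are shown for CDC20, UBE2S, PTTG1 and ESPL1, the 4 largest falls among members matched in the RefSeq promoter table. That of CDC23, the core member that fell most, is shown too. In many genes of G2 and M phase the promoter holds a cell cycle genes homology region (CHR), with the core TTTGAA, and CCAAT boxes upstream of it. Each line gives 150 bases that end just before the transcript start in RefSeq (GRCh38.p14), 5′ to 3′ on the strand of the gene. Capitals mark TTTGAA (or TTCAAA, the same word on the other strand) and CCAAT (or ATTGG), and where CCAAT and ATTGG overlap they run together as 1 block. The stretch of CDC20 lies at chr1:43358831-43358980 on the plus strand, that of UBE2S at chr19:55407789-55407938 on the minus strand and that of PTTG1, for the first of its 2 entries, at chr5:160421705-160421854 on the plus strand. ESPL1 lies at chr12:53268149-53268298 on the plus strand and CDC23 at chr5:138213324-138213473 on the minus strand.
CDC20: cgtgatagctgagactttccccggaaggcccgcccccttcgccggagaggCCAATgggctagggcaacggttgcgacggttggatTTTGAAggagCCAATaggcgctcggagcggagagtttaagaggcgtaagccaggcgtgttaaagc
UBE2S: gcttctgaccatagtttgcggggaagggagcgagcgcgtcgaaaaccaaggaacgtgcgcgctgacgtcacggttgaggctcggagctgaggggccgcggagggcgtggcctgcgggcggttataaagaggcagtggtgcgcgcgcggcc
PTTG1: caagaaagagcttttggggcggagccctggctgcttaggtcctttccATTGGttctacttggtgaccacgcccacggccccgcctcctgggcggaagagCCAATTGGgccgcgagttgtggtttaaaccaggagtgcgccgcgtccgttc
ESPL1: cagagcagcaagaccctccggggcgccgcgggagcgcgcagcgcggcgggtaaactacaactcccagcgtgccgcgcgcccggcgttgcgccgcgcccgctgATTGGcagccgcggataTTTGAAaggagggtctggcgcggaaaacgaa
CDC23: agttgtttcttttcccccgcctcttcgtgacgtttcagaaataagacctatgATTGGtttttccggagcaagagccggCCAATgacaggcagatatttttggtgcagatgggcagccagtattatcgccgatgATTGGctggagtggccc

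Counted from the start, the CHR core lay at -65 in CDC20, again at -178 outside the stretch printed, and at -31 in ESPL1, with a CCAAT box within 50 bases of the nearer core in each. PTTG1 and CDC23 held CCAAT boxes and no TTTGAA, and UBE2S held neither in the stretch printed and 1 CCAAT box at -191. Both words were searched on both strands over 300 bases, from 250 before to 50 after the start, in 12 promoter entries for 9 of the members, since UBE2C was not matched in the table. TTTGAA was found in 4 of 12 entries (33.3%), those of CDC20, ESPL1, FBXO5 and FZR1, and in 15.2% of all 35116 promoter entries. CCAAT was found in 9 of 12 (75%) and in 34.6% of all entries, and both together in 3 of 12 (25%) and in 5.9% of all. FZR1 and FBXO5 have 2 entries each, of which 1 held the CHR word. The 2 entries of PTTG1 overlap, and the same CCAAT boxes are counted in both. All 3 core subunits held CCAAT and none held TTTGAA in this window, and neither did UBE2S and PTTG1 outside the core. The 22 entries of the 11 other core subunits held TTTGAA in 13.6% and CCAAT in 27.3%. A match is a run of letters, and binding was not measured.

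**Figure D2:**
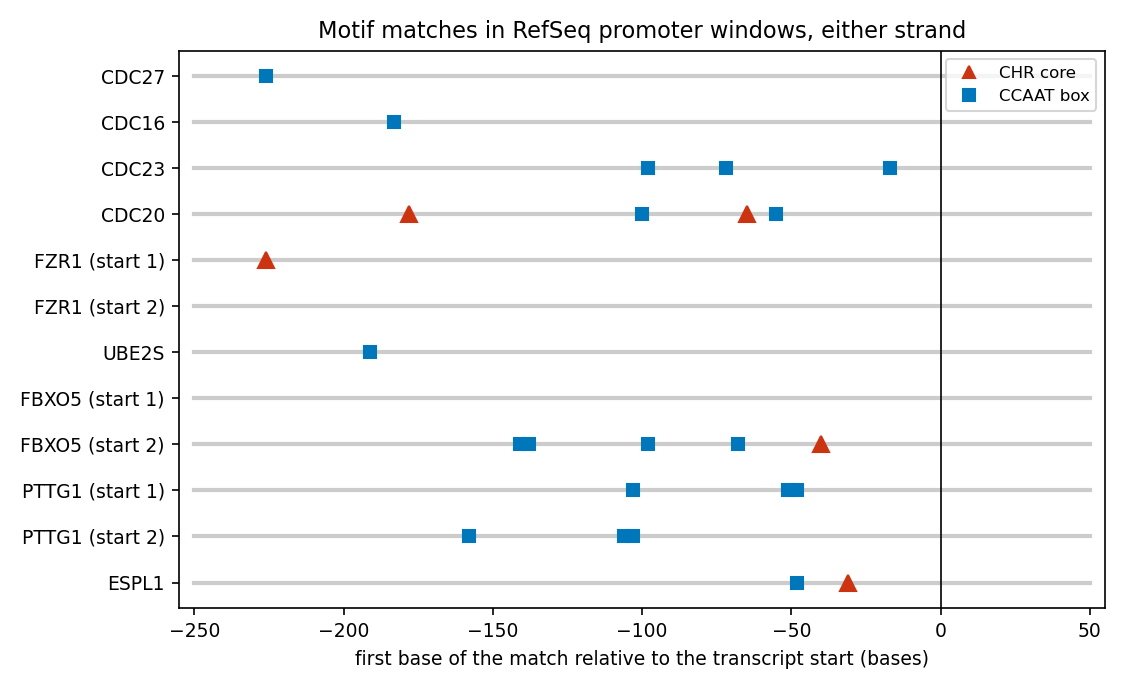
Position of each TTTGAA (CHR core, red triangles) and CCAAT word (blue squares), on either strand, relative to the transcript start at 0 (x axis, bases) in the RefSeq promoter windows of the members (y axis, 1 line per promoter entry). Triangles occur for CDC20 and ESPL1 and on 1 line each of FZR1 and FBXO5. None occurs on the lines of CDC27, CDC16 and CDC23, nor on those of UBE2S and PTTG1 outside the core.

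Among the 10 members the core subunits fell by the least. CDC16 and CDC23 are paired scaffold subunits built of repeats, and CDC27 is the subunit whose repeats hold the tails of the activators. The log2 intensity of CDC16 was 13.87 and 13.86 in the controls, against 13.25 and 13.18 in PAK1 shRNA cells. CDC23 read 12.79 and 12.85 in the controls, against 12.17 and 12.08 in PAK1 shRNA cells. Both genes were tight within a group and lower by a similar amount on both PAK1 shRNA arrays. In log2 fold change this was -0.65 for CDC16 (standard error 0.07, adjusted p = 0.000293) and -0.69 for CDC23 (standard error 0.08, adjusted p = 0.00027), or 63.8% and 62.1% of the control level. Their probes lie on chromosome 13 from 115038074 to 115038133 and on chromosome 5 from 137523708 to 137523767 (hg19, as the array files give it).

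CDC27 gave no single answer. Its brighter probe, on chromosome 17 from 45197819 to 45197878, read 11.81 and 12.00 in the controls, against 11.49 and 11.62 in PAK1 shRNA cells. Its other probe, from 45214521 to 45214580, read 9.67 and 9.70 in the controls, against 9.89 and 9.97 in PAK1 shRNA cells, so that the second probe was higher where the first was lower. The log2 fold change of the first was -0.35 (95% interval -0.58 to -0.11, adjusted p = 0.0183 over genes) and that of the second 0.25 (95% interval 0.07 to 0.43, adjusted p = 0.0225 over 27505 probes). The difference between the probes was -0.60 (standard error 0.09), and an exact two-sided permutation test gave p = 0.333, the smallest that 2 arrays against 2 allow. With the mean over its probes in place of the brighter one, the log2 fold change of CDC27 was -0.05 (adjusted p = 0.638 from limma), the smallest of a range from -0.44 to -0.05 over the alternatives, and it lost the threshold too without control replicate 2 (-0.24, adjusted p = 0.0909) and without PAK1 shRNA replicate 1 (-0.28, adjusted p = 0.0971). Every other member had a single probe.

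Both activators fell, CDC20 far more than FZR1. The spot of CDC20 had a mean signal of 13708 and 11742 in the controls before any correction, against 325 and 344 in PAK1 shRNA cells, over a local background between 45 and 51.5. After normalization its log2 intensity was 13.36 and 13.47 in control cells and 8.58 and 8.72 in PAK1 shRNA cells. The level on either PAK1 shRNA array was a small fraction of that on either control array, yet still well above background. CDC20 changed by -4.76 on the log2 scale (standard error 0.09, 95% interval -4.97 to -4.55, adjusted p = 2.87e-07 from limma), or 3.69% of the control level, and 18 of the 21996 genes fell further. With normexp fitted on all spots it was -4.15. FZR1 read 10.90 and 10.86 in control cells and 9.75 and 9.72 in PAK1 shRNA cells. FZR1 thus changed by -1.14 on the log2 scale (standard error 0.07, adjusted p = 2.06e-05), which left 45.3% of the control level, and 1520 genes fell further. The change of CDC20 was larger by -3.62 on the log2 scale (standard error 0.11), and the exact permutation test of this difference gave p = 0.333, the smallest that the design allows. The probes lie on chromosome 1 from 43826537 to 43826596 for CDC20 and on chromosome 19 from 3536696 to 3536755 for FZR1.

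UBE2C, the E2 that starts the chains, had the largest fall of the 10. It read 14.56 and 14.57 in the controls, against 9.52 and 9.26 in PAK1 shRNA cells. That is a log2 fold change of -5.18 (standard error 0.10, 95% interval -5.42 to -4.94, adjusted p = 2.97e-07), or 36.2-fold lower, and 5 genes of all those tested fell further. UBE2S, the E2 that extends the chains, read 14.06 and 14.60 in the controls, against 11.21 and 11.09 in PAK1 shRNA cells. Its control arrays differed more than those of any other member (SD 0.38), though both stood well over both PAK1 shRNA arrays. UBE2S changed by -3.18 on the log2 scale (standard error 0.17, 95% interval -3.59 to -2.78, adjusted p = 9.62e-06), and it moved between -3.46 without control replicate 1 and -2.93 without control replicate 2. UBE2C changed more than UBE2S by -2.0 (standard error 0.27). The exact permutation test gave p = 0.333, the smallest that the design allows, so it cannot decide on this difference. The UBE2C probe lies on chromosome 20 from 44445525 to 44445584 and the UBE2S probe on chromosome 19 from 55912685 to 55912744.

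The inhibitor, the securin and the separase fell between 3.52-fold and 9.03-fold. PTTG1, the securin, read 16.67 and 16.71 in control cells and 13.63 and 13.41 in PAK1 shRNA cells. ESPL1, the protease that securin restrains, read 13.06 and 12.93 in control cells and 10.27 and 10.29 in PAK1 shRNA cells. Substrate and protease were thus lower on the same arrays and by amounts of similar order. On the log2 scale the change was -3.17 for PTTG1 (standard error 0.09, adjusted p = 1.1e-06) and -2.71 for ESPL1 (standard error 0.08, adjusted p = 1.11e-06), which left 11.1% and 15.3% of the control level. The difference between them was -0.46 (standard error 0.15). Here too the exact permutation test gave p = 0.333, the smallest that the design allows, so it cannot decide. FBXO5 read 10.63 and 10.87 in control cells and 8.88 and 8.99 in PAK1 shRNA cells, a log2 fold change of -1.82 (standard error 0.10, adjusted p = 1.18e-05). The probes lie on chromosome 5 from 159855644 to 159855703 for PTTG1, on chromosome 12 from 53686748 to 53687109 for ESPL1 and on chromosome 6 from 153291898 to 153291957 for FBXO5.

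Securin has close copies on the array. The probe named for PTTG2 fell by 2.97 and that named for PTTG3P fell by 2.92 on the log2 scale, close to PTTG1 itself. The array files list a PTTG1 transcript among the matches of the PTTG2 probe, so the source of that signal is uncertain. They list none for the PTTG3P probe. Whether the probes of PTTG1 and PTTG3P also read the other copies was not tested.

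Ordered by size, the falls ran from UBE2C and CDC20, whose 95% intervals overlapped, through UBE2S and PTTG1, whose intervals also overlapped, to ESPL1, FBXO5 and FZR1 and then to CDC23, CDC16 and CDC27. The interval of UBE2S overlapped that of ESPL1 as well, and those of CDC23, CDC16 and CDC27 overlapped each other, so the order within these groups is not settled. The intervals of FZR1 (-1.31 to -0.97) and of CDC23 (-0.87 to -0.50) did not overlap. So the member outside the core that fell least still stood below the core member that fell most. The 11 other subunits of the core, taken from a list of the complex, did not keep to that line. ANAPC11, the RING subunit that binds the E2, went from 16.50 and 16.62 in control cells to 15.15 and 15.04 in PAK1 shRNA cells, a log2 fold change of -1.47 (standard error 0.08, adjusted p = 1.34e-05) and the largest fall among them. ANAPC10, which helps the activator to hold the degron of a substrate, went from 10.80 and 10.92 to 9.85 and 9.85 and fell by 1.02 (adjusted p = 5.03e-05).

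Of the 11 other core subunits, 7 were lower, 1 was higher and 3 did not pass the threshold, with a median of -0.36, beside 31.8% lower and 31.1% higher among all genes. The count of lower subunits was 5 under the alternative in which ANAPC5 (adjusted p = 0.0509) and ANAPC13 (adjusted p = 0.0512) did not pass. The log2 fold change was -0.88 for ANAPC13, -0.79 for ANAPC15 (C11orf51 on the array), -0.53 for ANAPC5, -0.36 for ANAPC1 and -0.26 for ANAPC7. The call of ANAPC7 was lost without PAK1 shRNA replicate 1 (-0.25, adjusted p = 0.0778 from limma) and without PAK1 shRNA replicate 2 (-0.26, adjusted p = 0.0765). The 4 other probes of ANAPC1 gave log2 fold changes from -0.49 to 0.05. ANAPC2, the cullin subunit that pairs with ANAPC11, was the one that rose, from 8.13 and 8.17 to 8.63 and 8.57, a log2 fold change of 0.45 (standard error 0.07, adjusted p = 0.00177). Its partner ANAPC11 fell on the same arrays. ANAPC16 at -0.14 (adjusted p = 0.267), CDC26 at -0.06 (adjusted p = 0.558) and ANAPC4 at 0.18 (adjusted p = 0.0666) did not pass. ANAPC4 passed under 3 alternatives, among them normexp fitted on all spots (0.17, adjusted p = 0.0251) and cyclic loess (0.26, adjusted p = 0.0178).

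**Figure D3:**
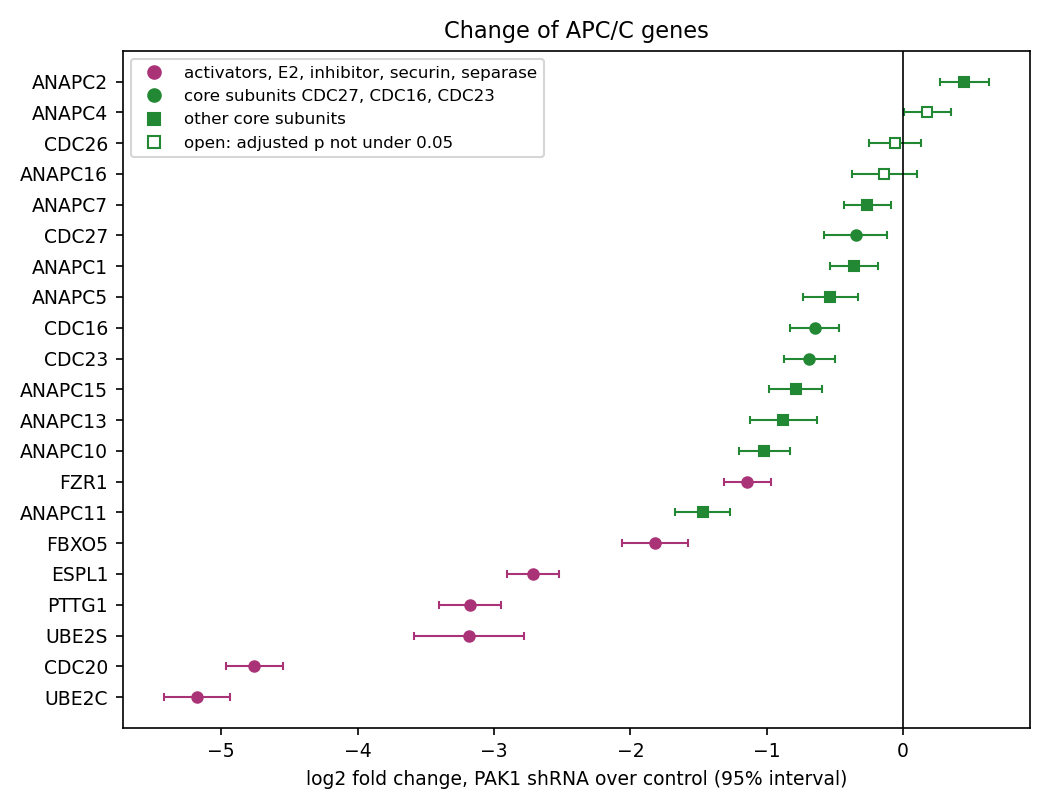
Log2 fold change, PAK1 shRNA over control (x axis), with its 95% interval from limma for the 10 members (circles) and the 11 other core subunits (squares), ordered by size; green marks the core and purple the activators, E2 enzymes, inhibitor, securin and separase, and open symbols did not pass the threshold. UBE2C and CDC20 lie far to the left at -5.18 and -4.76, ANAPC11 lies among the purple points at -1.47, and CDC27 is drawn from its brighter probe only.

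The next lists hold transcripts of proteins known to be destroyed through the APC/C or to act around it. All 19 other substrates listed fell (31.8% of all genes were lower), 17 of them at least 2-fold (8.94% of all genes), with a median log2 fold change of -3.60. CCNB1, the mitotic cyclin, had the largest fall, from 15.48 and 15.39 in control cells to 10.55 and 10.40 in PAK1 shRNA cells, a log2 fold change of -4.96 (standard error 0.09, adjusted p = 2.87e-07). CDC6, which loads the replicative helicase, had the smallest, with -0.52 (standard error 0.12, adjusted p = 0.00778). It lost its call under 1 alternative, which left 18 of 19. Its signal was low, at 7.70 and 7.98 in control cells and 7.22 and 7.41 in PAK1 shRNA cells. The size of its fall depended on the background correction, with -0.30 for normexp fitted on all spots and -0.71 for the processed signal. Of 8 genes of the spindle checkpoint, which holds CDC20 back until chromosomes are attached, 7 fell (31.8% of all genes were lower) and the median was -2.86. BUB1B, a part of the inhibitor that binds CDC20, fell most, with -4.35 (standard error 0.08), while MAD2L1BP, which helps to silence the checkpoint, rose by 0.38 (standard error 0.08, adjusted p = 0.00444). MAD1L1 fell least, by 0.40, and without PAK1 shRNA replicate 2 it was at -0.31 and did not pass (adjusted p = 0.0559).

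Cohesin is the ring that separase opens. All 5 of its genes were lower, with a median of -1.34, beside 31.8% lower among all genes, and the count was 4 in the settings in which STAG2 lost its call. RAD21, the subunit that separase cuts, fell most, to a log2 fold change of -1.84 (standard error 0.08, adjusted p = 4.46e-06), and STAG2 fell least, with -0.23 (adjusted p = 0.0337). STAG2 lost its call when any of 3 arrays was left out, at -0.19 without control replicate 2, -0.27 without PAK1 shRNA replicate 1 and -0.20 without PAK1 shRNA replicate 2, and the mean over its probes was 0.079 (adjusted p = 0.366). Among other enzymes that add or remove APC/C chains, USP37 fell by 1.18, UBE2D1 was at -0.03 (adjusted p = 0.787) and OTUD7B, which removes UBE2S-type chains, rose by 0.50 (adjusted p = 0.000886). USP44 was not well above background on any array. The core of SCF, the other large ubiquitin ligase of the cell cycle, moved by amounts close to the APC/C core, with a median of -0.53 over CUL1, SKP1 and RBX1, a range from -0.82 for SKP1 to -0.51 for RBX1 and none of the 3 at 2-fold. All 4 proliferation genes fell at least 2-fold, beside 8.94% of all genes. They ran from -4.83 for TOP2A to -1.54 for PCNA, with a median of -3.55. The part of a shift in proliferation in the falls of the members was not tested.

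The falls of 9 members kept their direction and passed the threshold under all 19 alternatives of the processing, and CDC27 lost the threshold under 5 of them. The widest range among the 9 was that of CDC20, from -4.93 with the processed signal of the scanner to -4.15 with normexp fitted on all spots. The core members CDC16 and CDC23 stayed between -0.69 and -0.50 and between -0.76 and -0.63. In every alternative the 7 members outside the core were lower and passed.

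**Figure D4:**
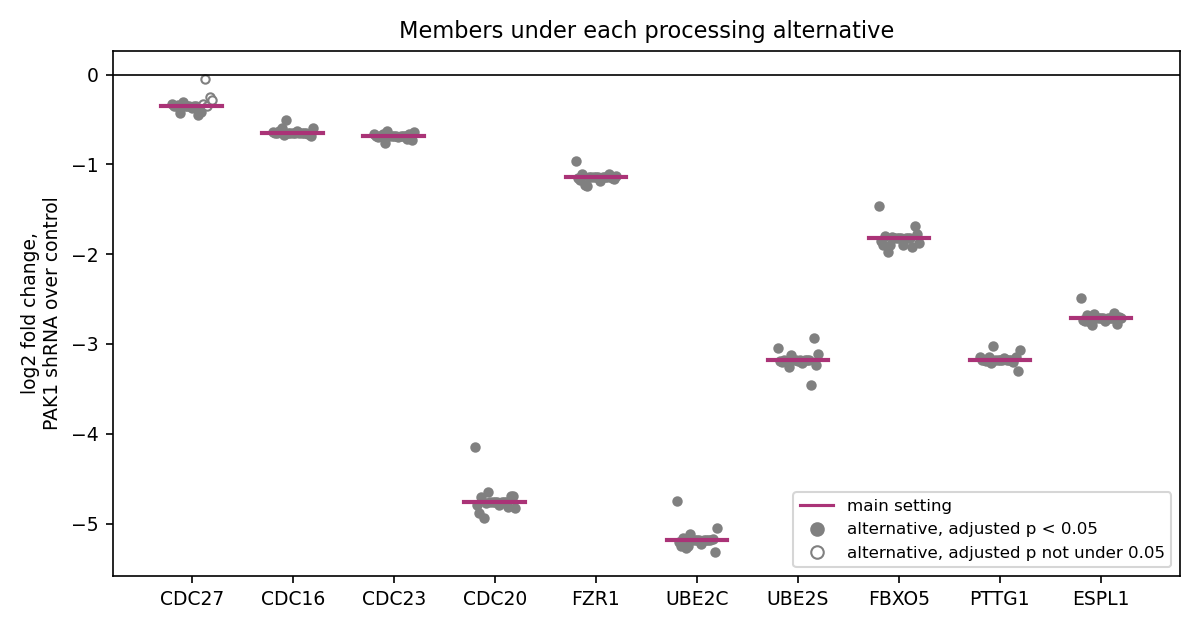
Log2 fold change, PAK1 shRNA over control (y axis), of each member (x axis) in the main setting (purple lines) and under each of the 19 alternatives (grey points, open where the adjusted p was not under 0.05). Open points occur for CDC27 only, and the 7 members right of CDC23 stay at or below -0.96 in every alternative.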

How the data were processed

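RNA of 2 control and 2 PAK1 shRNA samples was labelled with Cy3 from 0.5 µg and hybridized to Agilent human whole genome arrays. The authors deposited scanner output of Agilent Feature Extraction 9.5.3.1, which holds the brightness (intensity) of every spot before any normalization between arrays, and a table of log2 values normalized between arrays, used as an alternative. Of that table the unit was taken from the values, which followed the scanner signals at a correlation of at least 0.9996. The series text speaks of tumor derived cells from 2 tumors per group, while labels and methods name the cell line, which was followed.

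Background was corrected with normexp (offset 50). The fit left out spots of flagged local background, since the fitted mean on the control arrays was -666 and -740 with all spots and -9.19 and -12.1 without them. With only spots above 100 left out (8 and 17 on the control arrays, 0 on the others, controls aside) it was -13.4 and -16.0. Spots above 100 and outlier spots were dropped, arrays were quantile normalized and spots averaged per probe. A probe was tested if both arrays of a group, either group, had it well above background, which kept every member, and each gene was represented by its brightest probe. The test was limma 3.58.1 (lmFit, eBayes; R 4.3.3) over 21996 genes, with Benjamini-Hochberg adjustment, a threshold of 0.05 and 95% intervals. It was checked on simulated data with far fewer changed genes than were called here, so that check does not vouch for the calls.

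Gene names and coordinates (hg19) are those of the array files, and exons of that build were not analysed here. Promoters are from RefSeq (GRCh38.p14), a build from which no probe coordinate was taken. Members and lists were chosen with earlier results of these data known. Named are the members, PAK1, all other core subunits and, from other lists, the largest, the smallest and any opposite change. Alternatives varied the background, signal, normalization, filter, flags, probe rule, values, test, replicate block and each array. The mouse arrays were not analysed here.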

Additional observations from a re-analysis of the deposited data

How the results depend on the processing

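PAK1 (main log2 fold change -0.75) kept its direction and its call under all 19 alternatives, between -0.86 and -0.66. The median log2 fold change of the members outside the core was -3.17, and it was -3.04 with normexp fitted on all spots, -3.02 with cyclic loess and -3.24 to -2.93 with single arrays left out. The median of the core members was -0.65, and it was -0.60 with the processed signal scaled to its 75th percentile, -0.50 with cyclic loess and -0.69 to -0.60 with each array left out. The number of members lower and called was 10 or 9, the exception being CDC27, which was at -0.33 with the processed signal (adjusted p = 0.0632) and had an adjusted p of 0.154 in the unpaired t-test, which the study's statistics section names in general while its array methods name limma, run on the same values. That t-test also left ANAPC5 (adjusted p = 0.0509), ANAPC13 (0.0512), MAD1L1 (0.111), CDC6 (0.147) and STAG2 (0.0865) without a call and gave one to ANAPC4 (0.0221), and STAG2 lost its call with the processed signal and cyclic loess too. Over all genes, that t-test called 4744 lower and 4417 higher after Benjamini-Hochberg adjustment, against 6997 and 6846 with limma. A rule of at least 2-fold left 1967 lower and 1950 higher. With single arrays left out, 6001 to 6658 genes were lower and 5814 to 6491 higher, where the spread of the lone array left is taken from the other group. STAG2 turned to 0.079 with the mean over probes. With single arrays left out CDC26 ran from -0.12 to 4e-04 and UBE2D1 from -0.11 to 0.050, the positive values being without control replicate 2 (both genes) and without PAK1 shRNA replicate 1 (UBE2D1, 0.0064). The causes were not tested. Of 1235 values for 65 single genes under the alternatives, 1210 kept direction and side of the threshold, 18 lost the threshold, 3 gained it (ANAPC4) and 4 changed sign. The median of all genes was 0.12 with the processed signal and 0.14 with median centring, against which UBE2C fell to -5.39 in both, and more genes were then called higher (7561 and 8527) than lower (6381 and 6643). A block for the replicate number gave 7090 lower genes and 7029 higher, and no member changed its call, but deviations of same-numbered arrays correlated at 0.00812 over 27505 probes, and nothing else ties them, so they share only a number. No outlier can be tested in groups of 2.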
